A study of Mus musculus with 2 samples.

Results

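The thrombospondins are 5 secreted, calcium-binding glycoproteins of the extracellular matrix, encoded in the mouse by Thbs1, Thbs2, Thbs3, Thbs4 and Comp. The family was taken whole: each gene is represented by the row that carries its symbol in the deposited gene tables, and all 5 were found, with 1 row each, among 49492 gene symbols. The proteins fall into a pair of structural subgroups. Thrombospondin-1 and thrombospondin-2 form trimers and carry the type 1 repeats through which they bind CD36 and restrain blood vessel growth. Thrombospondin-3, thrombospondin-4 and the cartilage oligomeric matrix protein (COMP) form pentamers and lack those repeats. Thrombospondin-1 is stored in platelets, is made by many stromal cells and can activate latent TGF-beta. Thrombospondin-4 and COMP are best known from tendon, cartilage and injured heart and muscle.

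RNA sequencing compared Nestin+ cells, described in the labels as mesenchymal stem cells, that were grown from the bone marrow and the heart of C57BL/6 mice carrying the Nestin-GFP transgene, at 7 days of age. Nestin is an intermediate filament protein of progenitor cells, and the reporter makes the cells that express it fluorescent. Both cultures were at passage 10 and each gave 1 library. The heart cells grew with 20 ng/ml of EGF, 20 ng/ml of bFGF, 4 ng/ml of cardiotrophin-1 and the N2 and B27 supplements, while the bone marrow cells grew in another medium whose composition is not given in the sources used here. Tissue and medium therefore cannot be told apart. The number of mice behind each culture is likewise not given in the sources used here, and no difference below has a replicate check.

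Levels are RPKM, in which a read count is scaled for gene model length and for sequencing depth, so genes can be compared within a library as far as these lengths fit the transcripts. A comparison between the libraries also depends on how they are scaled to each other. Other scalings were therefore tried, and the counts of genes higher in each library changed with them, as given below. Read totals recovered from the values were 53999963 for bone marrow and 64872683 for heart. The intervals below are at 95% and cover counting error within these libraries only. A gene was counted as higher in 1 of the libraries when log2((heart + 1)/(bone marrow + 1)) lay at or beyond 1 or -1 and its larger value reached 5 RPKM. Such a gene is also said to favour that library. Nes, the gene of the defining marker nestin, stood at 1.20 RPKM in bone marrow against 8.74 in heart. Of 15 mesenchymal stromal markers, 14 reached 1 RPKM in a library and 13 reached 5 RPKM. Of the 13, 5 were higher in heart and 1 in bone marrow, where 7.56% and 9.51% of all genes at that level were. The marker higher in bone marrow is not among those named next. Pdgfrb stood at 133 RPKM in bone marrow against 139 in heart and Col1a1 at 1777 and 1751, while Thy1 stood at 0.0603 and 16.7, Eng at 0.576 and 33.9 and Col3a1 at 129 and 1388. Heart muscle markers were below 1 RPKM for 11 of 11 genes in both libraries, blood cell markers for 7 of 8 and endothelial markers for 8 of 9. In bulk RNA, fewer cells of a type and less RNA per cell cannot be told apart.

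Both trimer-forming genes were higher in bone marrow cells, and of the pentamer-forming genes Thbs3 and Thbs4 were higher in heart cells. Of the 4 members that reached 5 RPKM, 2 were thus higher in bone marrow, where 9.51% of the 7659 genes at that level were, and 2 were higher in heart, where 7.56% were. Comp went toward bone marrow at a level under the floor. At a 4-fold threshold only Thbs4 remained in heart, where 3.36% of the genes met it, and only Thbs1 in bone marrow, where 2.99% did. Thbs3, whose plain ratio was 4.54, missed that threshold on the RPKM + 1 scale without scaling, but its log2 ratio was 2.00 to 2.08 under the 4 scalings and 2.16 with 0.1 RPKM added. The log2 ratios of heart over bone marrow, on the RPKM + 1 scale, were -3.43 for Thbs1, -1.93 for Thbs2, 1.93 for Thbs3, 2.90 for Thbs4 and -1.34 for Comp. The median over 11355 genes at or above 1 RPKM in a library was -0.11. Each scaling between the libraries that was tried, a shift of only 0.07 to 0.15 on the log2 scale, left the same 4 members counted in the same directions. Setting the median ratio of abundant genes to 0, a shift of 0.15 on the log2 scale before 1 RPKM is added, changed the counts over all genes from 579 higher in heart and 728 in bone marrow to 704 and 583, a heart share of 54.7% in place of 44.3%.

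**Figure D1:**
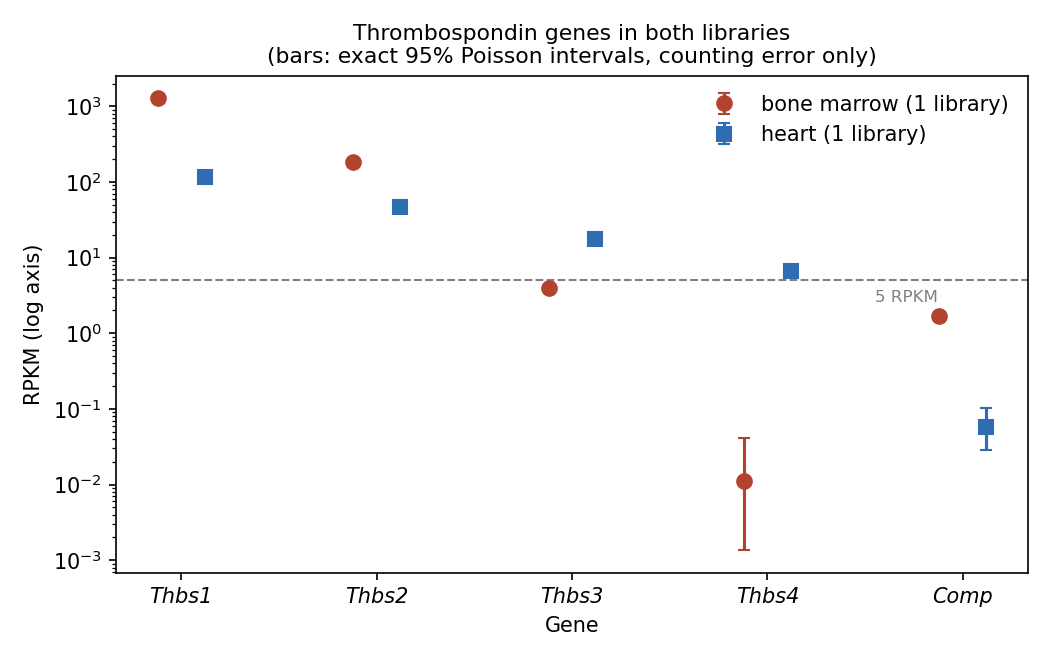
RPKM of the 5 thrombospondin genes on a log axis, in the bone marrow library (red circles) and the heart library (blue squares), with exact Poisson intervals for counting error. Thbs1 and Thbs2 sit higher in bone marrow, Thbs3 and Thbs4 higher in heart, and only the Thbs4 value in bone marrow (2 reads) and the Comp value in heart (11 reads) have wide intervals.

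Thbs1 (chromosome 2, 118111876 to 118127133, plus strand) encodes the best-studied member. Its level was 1269 RPKM in bone marrow and 116.5 RPKM in heart, from 415998 and 45908 reads. The level in bone marrow was 10.9 times that in heart, and counting error alone allows 10.8 to 11.0. By level, Thbs1 ranked 22 among all symbols in bone marrow and 287 in heart, so it was an abundant transcript in both cultures. Among the 728 genes higher in bone marrow it ranked 58 by log2 ratio, and by the absolute difference in RPKM it ranked 7 among the 7659 genes.

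Thbs2 (chromosome 17, 14665500 to 14694262, minus strand) encodes the other trimer-forming protein, which inhibits angiogenesis and takes part in collagen fibril assembly. Its level was 183 RPKM in bone marrow and 47.3 RPKM in heart, from 58603 and 18185 reads. Its level was 3.87 times higher in bone marrow, and counting error alone allows 3.81 to 3.94. The excess in bone marrow was smaller than that of Thbs1, so the ratio of Thbs1 to Thbs2 was 6.92 in bone marrow and 2.46 in heart.

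The longest identical stretch between the coding transcripts of Thbs1 and Thbs2 is 26 bases, and between those of Thbs4 and Comp it is also 26. They are shown because a read lying within such a stretch fits both genes equally. The other 8 pairs share at most 21 bases in a row. Stretches that are alike but not identical were not searched, and how reads were aligned is not given. Reads assigned to the wrong relative therefore cannot be counted or excluded. Both stretches of 26 bases lie in the coding part of each transcript. The sequences are from the GENCODE M21 transcripts.
Thbs1 and Thbs2: ggagaccgctgtgacaactgccccta
Thbs4 and Comp: cagaccatgaacagtgaccctggcct

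Thbs3 (chromosome 3, 89215180 to 89226837, plus strand) encodes a pentamer-forming thrombospondin of developing skeleton and other tissues. Its level was 3.92 RPKM in bone marrow and 17.8 RPKM in heart, from 1022 and 5577 reads. The level in heart was 4.54 times that in bone marrow, and counting error alone allows 4.25 to 4.86. Thbs3 was thus the most abundant pentamer-forming member in both libraries.

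Thbs4 (chromosome 13, 92751590 to 92794818, minus strand) encodes thrombospondin-4, a protein of tendon and striated muscle whose gene is known to be induced in the loaded heart. It stood at 6.55 RPKM in heart, from 1398 reads, and at 0.0113 RPKM in bone marrow, from 2 reads. The bone marrow count is under the floor of 3 reads used here for detection, which corresponds to 0.0169 RPKM for this gene. The level in heart was 582 times that in bone marrow, and counting error alone allows 161 to 4809. Of the 5 genes Thbs4 had the widest interval, since it rests on so few bone marrow reads. Its log2 ratio of 2.90 understates the difference because 1 RPKM is added on both sides.

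Comp (chromosome 8, 70373558 to 70382066, plus strand) encodes a protein of cartilage and tendon that binds collagen fibrils and matrilins. Its level was 1.67 RPKM in bone marrow and 0.0571 RPKM in heart, from 268 and 11 reads. The level in bone marrow was 29.3 times that in heart, and counting error alone allows 16.1 to 59.3. With the floor lowered to 1 RPKM, Comp joined Thbs1 and Thbs2 among the genes higher in bone marrow, where 9.26% of 11355 genes then counted, and 7.78% counted as higher in heart. The pentamer-forming members therefore did not all go one way.

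Within each library the order of the levels was clear of counting error. In bone marrow it ran from Thbs1 through Thbs2, Thbs3 and Comp to Thbs4, and in heart from Thbs1 through Thbs2, Thbs3 and Thbs4 to Comp. The intervals of neighbours in these orders did not overlap, but without replicates the spread between cultures is unknown. The orders differ only in the last places: Thbs4 was above Comp in heart and below it in bone marrow.

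The summed level of the family was 1457 RPKM in bone marrow and 188 RPKM in heart, 7.74 times higher in bone marrow. Thbs1 made up 87.0% of that sum in bone marrow and 61.9% in heart. Thbs2 made up 12.6% and 25.1%, and Thbs3 0.269% and 9.47%. The share of Thbs4 was 0.000773% in bone marrow and 3.48% in heart. The pentamer-forming genes together held 0.385% of the family sum in bone marrow (5.61 RPKM) and 13.0% in heart (24.4 RPKM). Reads of the 5 genes were 0.881% of the bone marrow library and 0.110% of the heart library.

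**Figure D2:**
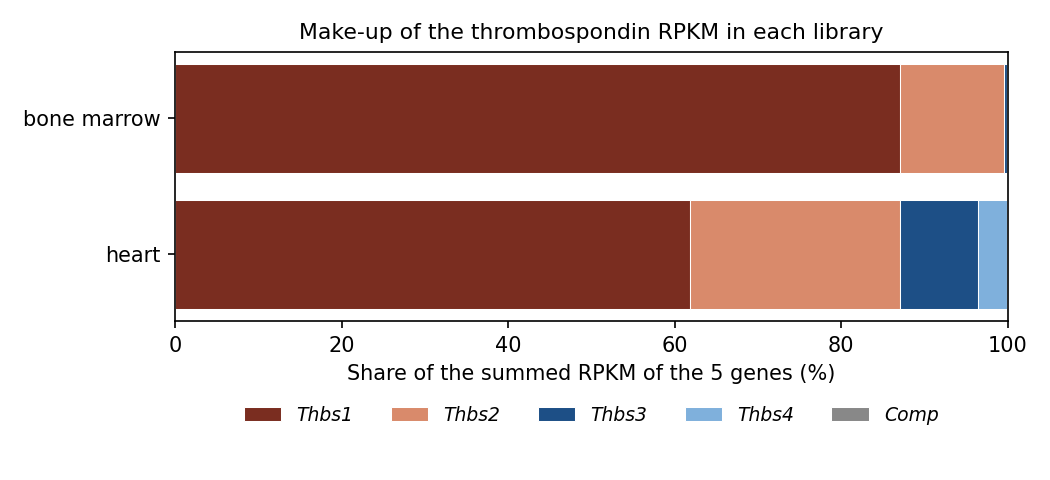
Share of each gene in the summed RPKM of the 5 thrombospondin genes, in percent, with 1 bar per library. Thbs1 takes 87.0% in bone marrow and 61.9% in heart, Thbs3 and Thbs4 are visible mainly in heart, and the share of Comp (0.115% and 0.0304%) is too small to see.

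The genes nearest to each member in the plane of both libraries, by distance in log2(RPKM + 1) among protein-coding genes, were taken as the 3 closest. For Thbs1 they were Lox, the enzyme that crosslinks collagen and elastin, at 1288 and 156 RPKM in bone marrow and heart. Next were Ctgf, which encodes the matricellular protein CCN2, at 849 and 141 RPKM, and Timp3, which encodes a matrix-bound inhibitor of metalloproteases, at 585 and 175 RPKM. Their distances were 0.42, 0.64 and 1.26, larger than those of the 3 closest genes of Thbs2, Thbs3 and Thbs4.

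For Thbs2 the nearest were Tnfrsf12a, which encodes the receptor of the cytokine TWEAK, the haem oxygenase gene Hmox1 and S100a10, at distances of 0.092, 0.31 and 0.32. For Thbs3 they were C77080, Itpkb and Adamts4, an aggrecan-cleaving protease gene, at distances of 0.097, 0.11 and 0.18. For Thbs4 they were Tenm3, Spon1 and Cyb561, at distances of 0.11, 0.14 and 0.15. Spon1 encodes F-spondin, a matrix protein that itself carries thrombospondin type 1 repeats, and stood at 7.13 RPKM in heart against 0.0803 in bone marrow. These likenesses rest on 2 libraries.

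**Figure D3:**
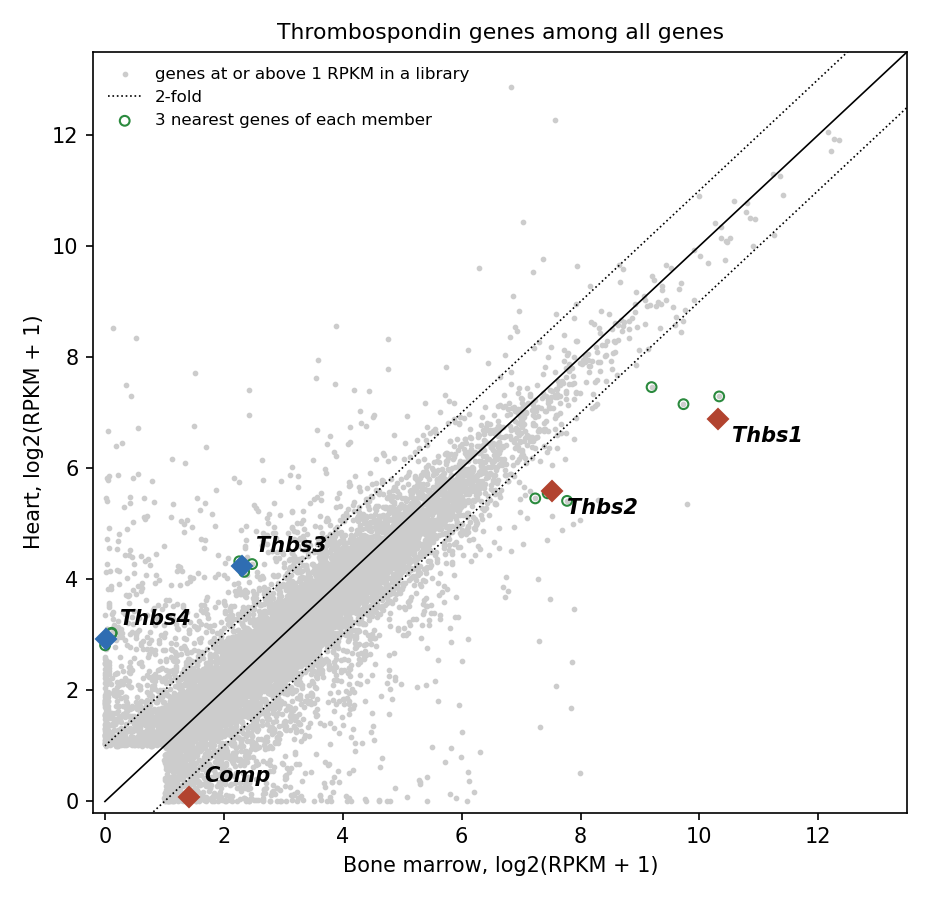
Level of each gene at or above 1 RPKM in a library, as log2(RPKM + 1) in bone marrow (horizontal) and heart (vertical), with thrombospondin genes as diamonds coloured by the library in which they are higher and the 3 nearest genes of Thbs1, Thbs2, Thbs3 and Thbs4 as green rings. Thbs1 and Thbs2 lie below the 2-fold band, Thbs3 and Thbs4 above it, and Comp below it at the low end.

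RefSeq promoter windows, from 250 bases before the annotated start to 50 bases after it, were at hand for 3 of the 5 members: Thbs2, higher in bone marrow, and Thbs3 and Thbs4, higher in heart. They are printed to set a promoter of each direction side by side. Capitals mark every match, on either strand, to 8 motifs: TATAAA (the TATA box), CCAAT (bound by NF-Y), GGGCGG (bound by Sp1), CACGTG (the E-box), TGANTCA (the AP-1 site), GGAATG (bound by TEAD factors), GCGNGGGCG (bound by Egr1) and the CArG box of the serum response factor, searched by its usual pattern of 10 letters. The windows are given 5′ to 3′ along the gene on GRCm38.p6, at chr17:14694213-14694512 on the minus strand, chr3:89214930-89215229 on the plus strand and chr13:92794769-92795068 on the minus strand.
Thbs2: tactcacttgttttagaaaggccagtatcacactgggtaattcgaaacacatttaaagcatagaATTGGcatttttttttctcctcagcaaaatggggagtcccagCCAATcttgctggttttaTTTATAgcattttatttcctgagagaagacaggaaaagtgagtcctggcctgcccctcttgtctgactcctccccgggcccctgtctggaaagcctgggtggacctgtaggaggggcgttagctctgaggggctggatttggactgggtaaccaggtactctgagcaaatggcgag
Thbs3: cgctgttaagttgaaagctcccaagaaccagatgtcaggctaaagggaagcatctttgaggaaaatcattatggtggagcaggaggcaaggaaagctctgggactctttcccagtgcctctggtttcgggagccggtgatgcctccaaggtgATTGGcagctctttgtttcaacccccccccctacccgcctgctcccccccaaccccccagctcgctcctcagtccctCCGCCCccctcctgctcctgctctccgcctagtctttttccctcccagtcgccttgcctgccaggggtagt
Thbs4: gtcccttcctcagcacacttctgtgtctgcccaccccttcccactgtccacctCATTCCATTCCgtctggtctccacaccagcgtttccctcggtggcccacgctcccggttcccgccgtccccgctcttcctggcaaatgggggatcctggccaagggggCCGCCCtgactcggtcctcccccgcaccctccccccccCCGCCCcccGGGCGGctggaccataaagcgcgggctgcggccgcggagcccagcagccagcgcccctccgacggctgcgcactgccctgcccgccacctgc

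The windows differed in base composition. That of Thbs4 was 72.0% G and C with 24 CpG pairs, that of Thbs3 59.0% with 8 and that of Thbs2 48.3% with 4, while the medians over 32851 promoters were 52.7% and 7. Thbs4 held 3 matches to GGGCGG and Thbs3 held 1, a motif found in 35.7% of all promoters. Thbs4 also held 2 matches to GGAATG, present in 14.7% of promoters, which share 1 base with each other and begin at positions -197 and -192 relative to the start. CCAAT, present in 37.4%, was matched at 2 places in Thbs2 and 1 in Thbs3. TATAAA, present in 13.6%, was matched once in Thbs2, in reverse, at position -126. The other motifs had no match in these windows: CACGTG (7.15% of promoters), TGANTCA (7.81%), GCGNGGGCG (5.55%) and the CArG box (1.63%). None of the matches overlapped a different motif, and a match describes letters, not binding.

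The genes beside the members were read next. Within 100 kb of a member lay 26 named protein-coding genes. Of these, 15 reached 5 RPKM and 0 of the 15 met the rule in either direction on the RPKM + 1 scale, where 7.56% and 9.51% of all genes did. The count depends on the scale: Serinc5, next to Thbs4, differed 2.08-fold as plain RPKM and was counted as higher in heart under each of the 4 scalings and with 0.1 added in place of 1. Mtx1, which encodes a mitochondrial import protein and is known to share its upstream region with Thbs3, stood at 6.32 RPKM in bone marrow against 5.47 in heart, a log2 ratio of -0.18, against 1.93 for Thbs3. The RefSeq starts of Mtx1 and Thbs3 lie 1273 bases apart on opposite strands.

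The GENCODE model of Mtx1 runs through Thbs3 on the other strand, and 318 bases of the exons overlap, 6.59% of the exon length of Thbs3. Mtx1 had 1224 and 1271 reads, so its count was nearly level while that of Thbs3 went from 1022 to 5577. Around Thbs3 genes at or above 5 RPKM included Clk2, Scamp3, Fam189b, Krtcap2, Trim46, Dpm3 and Slc50a1, with log2 ratios between -0.17 and 0.50. The mucin gene Muc1 stood at 0.513 and 1.50 RPKM and Efna1, Efna3, Hcn3 and Pklr were also under the floor. For Thbs1, a noncoding gene on the other strand shares 208 exon bases, 3.42% of the exon length, and stood below 1 RPKM in both libraries.

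Around Comp, Homer3, Ddx49, Cope, Upf1 and Klhl26 reached 5 RPKM, with log2 ratios between -0.51 and 0.36, while Sugp2, Cers1, Gdf1 and Crtc1 were below the floor. Next to Thbs4, Serinc5 stood at 6.42 RPKM in bone marrow against 13.3 in heart, a log2 ratio of 0.95, and Mtx3, a relative of Mtx1, at 2.98 and 4.56. The coding neighbour of Thbs1, Fsip1, stood at 0.169 and 0.195 RPKM, and Thbs2 had no named protein-coding neighbour in the window.

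**Figure D4:**
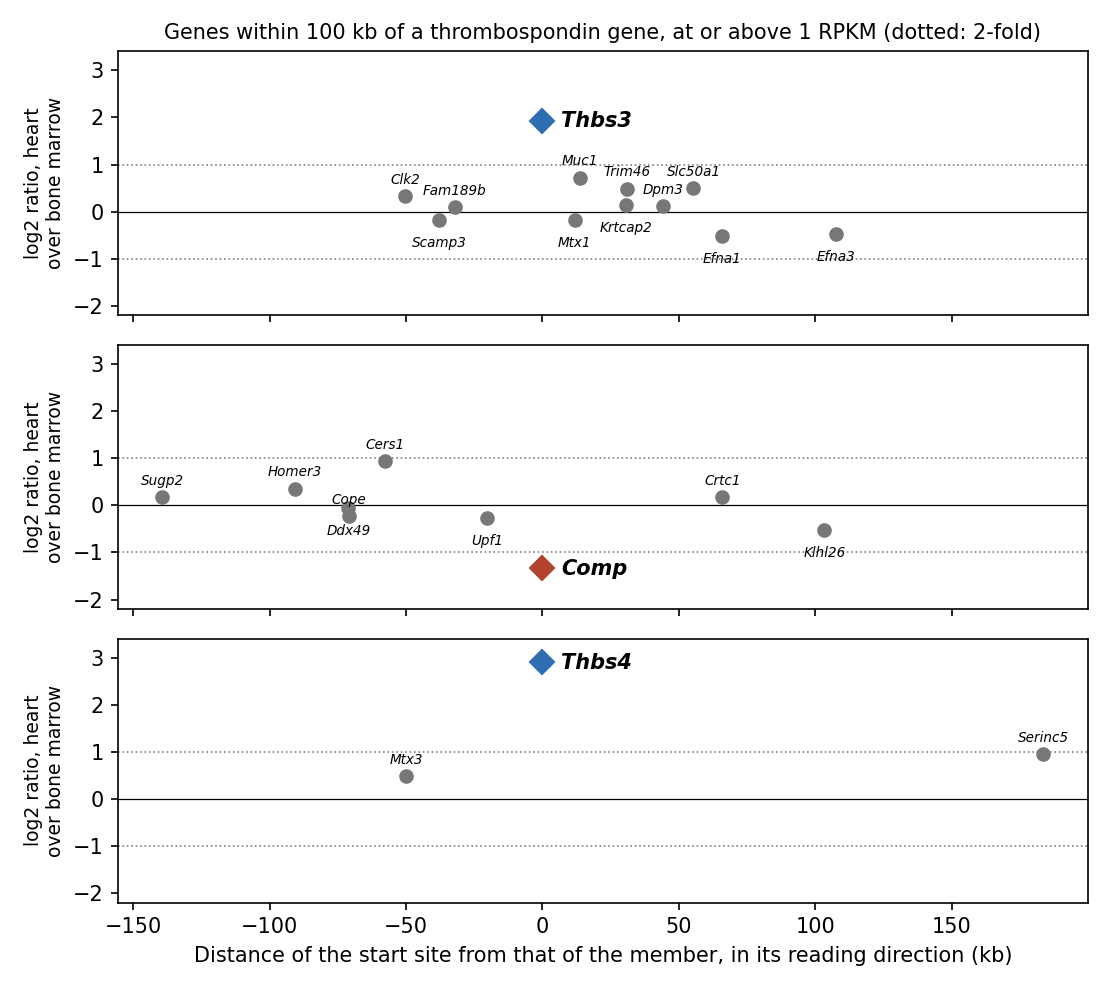
log2 ratio of heart over bone marrow, on the RPKM + 1 scale, of protein-coding genes at or above 1 RPKM that are reported here within 100 kb of Thbs3, Comp or Thbs4, against the distance in kb between the start sites of the gene models, which can exceed 100 kb because the window runs between gene ends. The neighbours (grey points) stay inside the dotted 2-fold lines, while Thbs3 and Thbs4 lie above them and Comp below.

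Of 16 listed receptor genes of thrombospondins, 11 reached 5 RPKM: 2 favoured heart, 0 favoured bone marrow and 9 counted in neither, beside 7.56% and 9.51% of all genes, with a median log2 ratio of 0.22 over the 14 at or above 1 RPKM. Those higher in heart were Cacna2d1, the calcium channel subunit through which thrombospondins promote synapse formation, at 4.03 RPKM in bone marrow against 9.35 in heart, and Notch3, whose signalling thrombospondin-2 can enhance, at 3.05 and 9.56. Cd47, the receptor of the thrombospondin C-terminal domain, stood at 22.1 RPKM in bone marrow against 32.7 in heart. Cd36, the receptor of the type 1 repeats, had 0 reads in both libraries, against 3 reads as the floor.

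The uptake receptor gene Lrp1 and its partner Calr, which encodes calreticulin, stood at 164 and 219 RPKM in bone marrow and 205 and 270 in heart. The integrin genes Itgb1, Itgav and Itgb3 had log2 ratios of -0.03, 0.29 and 0.03, and the syndecan genes Sdc1 and Sdc4 had 0.15 and -0.23. Vldlr, which encodes a lipoprotein receptor, had -0.09. Under the floor, Itga3, which encodes an integrin subunit that binds thrombospondin-1 and was named after its values were seen, stood at 4.35 RPKM in bone marrow against 0.259 in heart. Receptor transcripts for CD47, LRP1 and several integrins were therefore present in both cultures.

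Genes of TGF-beta activation and response, a process in which thrombospondin-1 can act, went both ways. In this list 16 genes reached 5 RPKM, and of these 6 favoured bone marrow, 5 favoured heart and 5 counted in neither (all genes: 9.51% and 7.56%), with a median log2 ratio of 0.01 over 17 genes. Ctgf, a known TGF-beta responsive gene, had a log2 ratio of -2.58. The latent binding protein genes Ltbp1 and Ltbp4 went opposite ways, at 27.4 and 2.72 RPKM in bone marrow and 2.61 and 16.2 in heart. Bone marrow thus had the higher level of Thbs1, Ltbp1 and Ctgf, and heart that of Ltbp4.

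Of the proteases that cleave thrombospondins or are bound by them, and their inhibitors, 11 reached 5 RPKM, and of these 5 favoured heart, 1 favoured bone marrow and 5 counted in neither (all genes: 7.56% and 9.51% in the same order), with a median log2 ratio of 0.40. Mmp2, which encodes a gelatinase that thrombospondin-2 binds and helps to clear through LRP1, stood at 246 RPKM in bone marrow against 792 in heart. Its RNA was higher where that of Thbs2 was lower, but clearance acts on the protein, which was not measured. Adamts7, which encodes a protease described as cleaving COMP, stood at 0.537 RPKM in bone marrow against 14.2 in heart, a ratio of 26.5. Adamts12, described as another such protease, stood at 10.6 and 5.08. Comp itself was the lower in heart. A link between the RNA levels of these proteases and those of the thrombospondins was not tested.

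The other 3 of this list higher in heart were Adamts4, and Plat and Plau, which encode plasminogen activators, with log2 ratios of 1.80, 2.27 and 1.02. Timp3 was the gene higher in bone marrow, with -1.74. Adamts1, which encodes a protease known to release fragments of thrombospondin-1 and thrombospondin-2, stood at 22.4 RPKM in bone marrow against 29.9 in heart and counted as neither, as did Furin, Timp1 and Timp2.

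Thrombospondin-1 and thrombospondin-2 inhibit angiogenesis, so a list of other secreted inhibitors and stimulators of vessel growth was read. It held 11 genes that reached 5 RPKM, and 2 favoured heart, 2 favoured bone marrow and 7 counted in neither (all genes: 7.56% and 9.51%). Vegfc, a lymphatic growth factor gene, stood at 18.1 RPKM in heart against 0.696 in bone marrow, and the hepatocyte growth factor gene Hgf at 16.9 and 0.152. Pgf, a relative of the VEGF genes, stood at 8.93 RPKM in bone marrow against 0.292 in heart. Timp3 was the other one higher in bone marrow. Vegfa, named after its values were seen, stood at 36.1 and 34.7 RPKM in bone marrow and heart, so the vascular growth factor itself hardly differed while Thbs1 differed 10.9-fold.

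Of 12 transcription factor genes described as regulators of Thbs1, 11 reached 5 RPKM: 2 favoured bone marrow, 1 favoured heart and 8 counted in neither, beside 9.51% and 7.56% of all genes. Id1 and Myc, both described as repressors of Thbs1, stood at 16.3 and 22.6 RPKM in bone marrow and 3.76 and 6.00 in heart, and were thus higher in the same library as Thbs1. Hoxa5, a homeobox gene, stood at 3.73 RPKM in bone marrow against 14.2 in heart. The p53 gene Trp53, described as an activator, had a log2 ratio of -0.57. Egr1, Sp1, Jun and Tead1 had -0.05, 0.30, -0.49 and -0.37, and Srf, its cofactor gene Mkl1 and Yap1 had -0.91, -0.78 and -0.08.

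Cartilage and tendon genes, the usual company of COMP and thrombospondin-4, did not form 1 pattern. Of 18 cartilage genes, 5 reached 5 RPKM, of which 3 favoured bone marrow, 1 favoured heart and 1 counted in neither (all genes: 9.51% and 7.56%). The cartilage collagen gene Col2a1 stood at 8.71 RPKM in bone marrow against 0.0565 in heart, Col11a1 had a log2 ratio of -1.99 and the lubricin gene Prg4 -2.53. Matn2, which encodes a matrilin, was the one higher in heart, at 76.9 RPKM against 13.4. Matn3, a cartilage matrilin gene named after its values were seen, stood at 2.13 RPKM in bone marrow against 0.0511 in heart, a low level on the same side as Comp.

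Acan, which encodes the main proteoglycan of cartilage, had 3 reads in each library. The 10 chondrocyte markers summed to 19.9 RPKM in bone marrow against 8.62 in heart, with 4 of the 10 at or above 1 RPKM. Only Col2a1 and Sox9 reached 5 RPKM, and Sox9 was level, at 7.12 RPKM in bone marrow against 7.13 in heart. The part of these markers in the level of Comp was not tested. Of 10 tendon and ligament genes at or above 5 RPKM, 3 favoured heart, 2 favoured bone marrow and 5 counted in neither (all genes: 7.56% and 9.51%). Scx, which encodes the tendon transcription factor scleraxis, stood at 23.7 RPKM in bone marrow against 0.529 in heart, opposite to Thbs4, and the mature tendon markers Tnmd and Kera were listed at 0 in both libraries. Fmod had a log2 ratio of -5.75, and the proteoglycan genes Lum and Dcn had 4.56 and 4.36.

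Thrombospondin-4 is known to act inside cells on the stress sensor ATF6, so genes of that pathway were read beside Thbs4. All 18 reached 5 RPKM and 0 of the 18 met the rule, where 7.56% and 9.51% of all genes did, with a median log2 ratio of 0.37. Under the scalings between the libraries 1 or 2 of them counted as higher in heart, Pdia4 in each and Hyou1 in 2 of the 4. Atf6 itself stood at 18.4 RPKM in bone marrow against 24.0 in heart. The largest ratios in size belonged to the chaperone genes Pdia4, Hyou1 and Dnajc3, with 0.95, 0.89 and 0.78, and to Ddit3, which encodes the factor CHOP, with -0.69.

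Of the other matricellular genes, the class to which thrombospondins belong, 15 reached 5 RPKM, and of these 6 favoured bone marrow, 4 favoured heart and 5 counted in neither (all genes: 9.51% and 7.56%), with a median log2 ratio of -0.36 over 16. The largest ratios were those of Wisp2 (-7.47), Spp1 (6.03), Tgfbi (5.05) and Smoc2 (-4.05). Postn, the periostin gene of the series title, was named outside the rule and stood at 448 and 399 RPKM in bone marrow and heart. Thbs1 was thus above Postn in bone marrow and below it in heart.

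**Figure D5:**
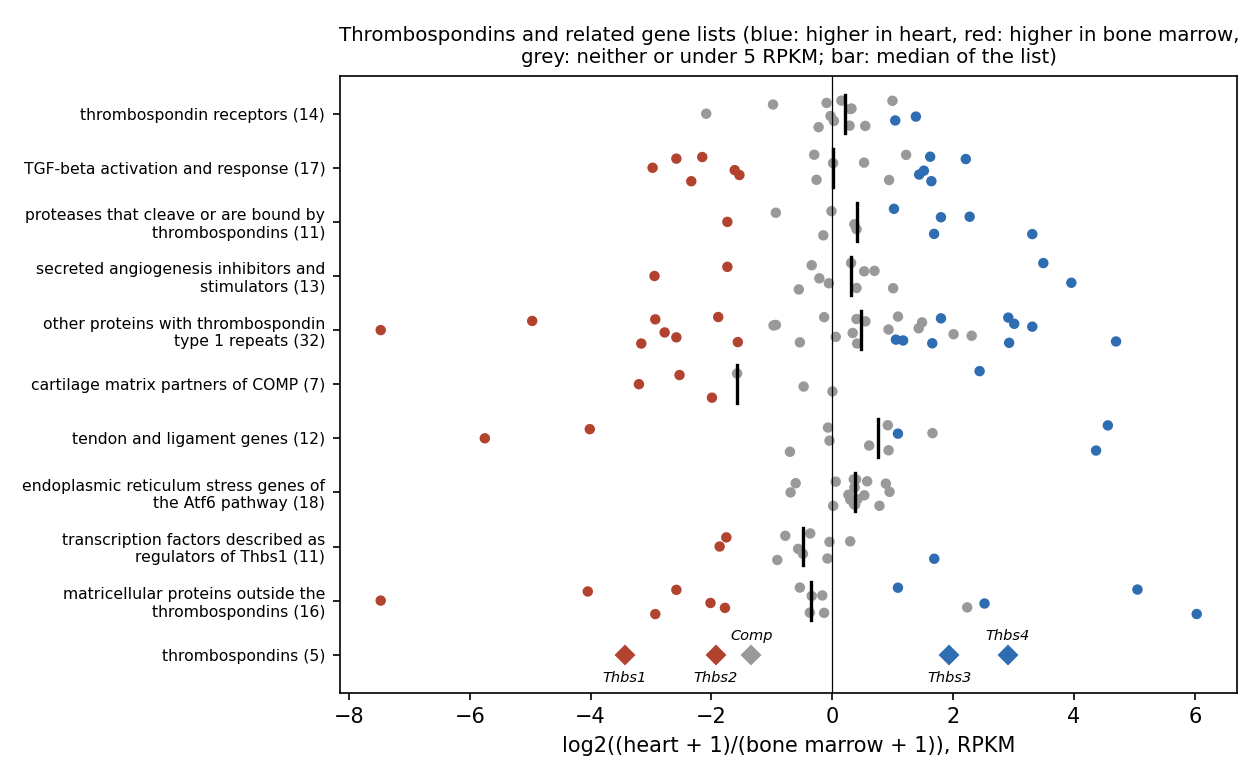
log2 ratio of heart over bone marrow, on the RPKM + 1 scale, for genes at or above 1 RPKM in 10 lists related to thrombospondins (points; the number of genes in brackets; bars are medians) and for the 5 thrombospondin genes (diamonds). Thbs1 and Thbs2 lie to the left and Thbs3 and Thbs4 to the right, the 18 genes of the Atf6 pathway lie between -0.69 and 0.95, and the 14 receptor genes between -2.09 (Itga3) and 1.38 (Notch3).

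Markers of other cells that make thrombospondins were read beside these results. Of 9 platelet and megakaryocyte genes, Pf4, Ppbp and Gp9 had 0 reads in both libraries, 8 were below 1 RPKM in both, and the list summed to 2.85 RPKM in bone marrow against 3.58 in heart, far below Thbs1. Macrophage markers summed to 4.38 and 4.75 RPKM, with 6 of 8 below 1 RPKM in both libraries. Smooth muscle contractile genes went in the direction of Thbs1 and Thbs2. Of 7 genes, 4 reached 5 RPKM and all 4 were higher in bone marrow, where 9.51% of all genes at that level were. One of them, Smtn, no longer counted with 5 RPKM added in place of 1 and under some of the scalings. The list summed to 1129 RPKM in bone marrow and 79.2 in heart, with Acta2 at 889 and 40.1. The mature smooth muscle genes Myh11 and Des stayed below 1 RPKM in both libraries. The part of these genes in the thrombospondin levels was not tested.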

How the data were processed

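The authors deposited 1 table per library with a name, chromosome, region and RPKM for each of 49585 gene rows, per the file headers. Libraries were made from 1 ug of total RNA, per the labels' protocols. How reads were aligned and counted, and whether strand was used, is not given in the sources used here. The submitters' processing notes name mm8, but 91.1% of rows have the region of a GENCODE M21 gene on GRCm38, and coordinates are read on that build.

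Read totals were found as those making RPKM times exon length whole, which held in both libraries, within 0.02 reads, for 86.2% of the 14256 genes that had a length and a value above 0 in each. Thbs2 was not matched by region. Its length was taken as 5922 bases, the coding transcript of 5895 plus 27 up to the deposited start, which gave whole reads in both libraries and was chosen after seeing the data. All its exons together span 7003 bases. The other members have the length of all their exons, for Thbs3 4823 bases against 3190 in its longest coding transcript. Ratios and shares between members depend on these lengths, while ratios between the libraries do not. Ratio intervals are exact conditional (Clopper-Pearson) and level intervals exact Poisson, and both cover counting error only, since reads counted without molecular identifiers can repeat a molecule. With 1 library per tissue no test was run. Where rows shared a symbol, the one of highest mean was kept.

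The members and lists were chosen with earlier results of these data known. Named genes are the members, up to 4 genes per list (largest ratios among those reaching 5 RPKM; all such genes for receptors, proteases and regulators), coding neighbours within 100 kb and the 3 nearest genes of each member that reached 5 RPKM. Cell type markers, Postn and the genes said to be named after their values were seen are outside it. Some genes that the rule takes are left out of the text. Alternatives were other pseudocounts, floors, scalings, a 4-fold threshold and summed rows. Software was matplotlib 3.10.9, scipy 1.17.1, pandas 2.3.3 and numpy 2.4.6 under Python 3.11.15, and the steps were tested on simulated data.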

Additional observations from a re-analysis of the deposited data

How the results depend on the processing

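A pseudocount cannot change the direction of a log2 ratio, and the 4 scalings were shifts of only 0.07 to 0.15 before 1 RPKM is added. That all 5 directions held is therefore little check, and only the sizes are informative. Over the pseudocounts and scalings the ranges were -3.44 to -3.29 for Thbs1, -1.95 to -1.78 for Thbs2 and 1.35 to 2.16 for Thbs3. They were 1.20 to 5.90 for Thbs4 and -3.50 to -0.40 for Comp. The last ranges are wide because the pseudocount weighs on low values. The same 2 genes were counted in each direction under the pseudocounts and scalings. Summing rows could not change the members, which have 1 row each. A floor of 1 RPKM, which with 1 RPKM added equals no floor, added Comp to bone marrow, for 3 genes there. A floor of 20 RPKM left 0 members higher in heart, since Thbs3 and Thbs4 are below it. A 4-fold threshold left 1 member in heart, Thbs4, and 1 in bone marrow, Thbs1. Thbs2 and Thbs3 fell just short of it on the RPKM + 1 scale.

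Over all genes, a pseudocount of 5 gave 383 genes higher in heart and 424 in bone marrow, and a floor of 20 RPKM gave 263 and 315. The 4-fold threshold gave 257 and 229. A floor of 1 RPKM gave 883 in heart and 1052 in bone marrow. Having no floor is the same setting, since with 1 RPKM added a 2-fold ratio needs at least 1 RPKM. For the gene lists, the pseudocounts and scalings were tried after seeing the data. A pseudocount of 5 left 0 of the 2 receptor genes, Cacna2d1 and Notch3, counted in heart, and the tendon list went from 3 genes higher in heart to 5 under 3 of the 4 scalings. No paired analysis was possible because each tissue has 1 library. Depth limits Thbs4 in bone marrow (2 reads) and Comp in heart (11 reads).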

Other observations

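Other genes for proteins with thrombospondin type 1 repeats went both ways. Of 57 listed genes, 22 reached 5 RPKM, of which 9 favoured heart, 8 favoured bone marrow and 5 counted in neither, where 7.56% and 9.51% of all genes at that level were. Grouped after the values were seen, 5 of 8 ADAMTS protease genes at that level were higher in heart and 0 in bone marrow: Adamts2, Adamts4, Adamts6, Adamts7 and Adamts10. The 3 genes of ADAMTS-like proteins at that level, Adamtsl3, Adamtsl4 and Adamtsl5, which share the repeats but lack the protease domain, were all higher in bone marrow. The split depends on the pseudocount: with 5 RPKM added in place of 1, Adamts2, Adamts6 and Adamts10 no longer counted as higher in heart. With 0.1 added, Adamts12 counted as higher in bone marrow. The sum over 19 ADAMTS genes was 79.4 RPKM in bone marrow against 151 in heart, and that over 5 ADAMTS-like genes was 79.4 and 13.2. The R-spondin genes Rspo2 and Rspo3, also in the list, went opposite ways, at 41.6 and 0.0240 RPKM in bone marrow and 0.362 and 25.5 in heart. The CCN genes Cyr61 (named after its values were seen), Ctgf and Wisp2 were higher in bone marrow, while Nov and Wisp1, likewise named after their values were seen, counted in neither, with log2 ratios of -0.14 and -0.54.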
